A study of Homo sapiens with 6 samples.

Results

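The genes described here come from families known to write, read or erase marks on histones and DNA, or to move nucleosomes. Not every member has such a role. They were chosen by name: every gene whose symbol in the deposited table matched the names of the SMARC, CHD, ARID, SETD, EHMT, MLL, WHSC1, PRMT, JMJD, JARID, EZH, SUZ12, CBX, HDAC, SIRT, MYST, ING, BRD and DNMT families. That gave 101 genes of the 9588 gene names in the table, with 117 of its 14686 regions, and a gene with several regions is represented by the region with the highest mean over the 6 libraries. The table holds 3' ends of polyadenylated RNA from H9 at passage 51, a long-established line of human embryonic stem cells (hESCs). The 3 hESC libraries came from undifferentiated cells on Matrigel in medium conditioned by mouse embryonic fibroblasts, labelled G1 (0 h), G1/S (2 h) and S (3 h). The 3 endoderm libraries came from H9 cells after 6 days in activin A at 100 ng/ml, labelled G1 (0 h), G1/S (3 h) and S (6 h). Their medium was changed on day 3, and its fetal bovine serum (FBS) went from 0% on day one to 0.2% on the next day and 2% from then on. Cell type and medium cannot be told apart, there is 1 library for each type and phase, and how the cells were brought into phase is not given in the sources used here.

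DNA in the nucleus is wound on histones, and the access of the transcription machinery to it depends on enzymes of several kinds. Remodelers of the SMARC and CHD families slide or evict nucleosomes with energy from ATP. Methyltransferases, acetyltransferases and DNA methyltransferases add marks, demethylases and deacetylases remove them, and proteins with chromodomains, bromodomains or PHD fingers bind them. In embryonic stem cells the Polycomb complexes hold developmental genes silent through methylation of histone H3, and the balance of Polycomb writers, readers and demethylases is known to shift when the cells commit to a germ layer. Several of these enzymes also act during DNA replication, when marks are copied onto new nucleosomes and new DNA.

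The smallest library is endoderm S with 2502792 reads, and the largest is hESC S with 6203079. Values are reads divided by the library's size factor and are called signal, in which 1 read is worth between 0.591 and 1.71. Over the 6 libraries the members' regions hold at least 64 reads, with a median of 870 and a highest total of 25619, against a median of 259 over all regions, and all 101 passed the filter on low values. Members took between 0.731% and 0.994% of a library's reads. The labelled types were checked on summed marker signal: 8 measured markers of definitive endoderm summed to 442 to 533 in the hESC libraries and 8279 to 17230 in endoderm, and 7 of pluripotency to 2290 to 2866 and 1174 to 1427. Of the latter SOX2 (1391 to 1917 in hESCs, 342 to 843 in endoderm) and DNMT3B (393 to 469.8 and 125 to 166) were lower in endoderm without overlap, while the ranges of POU5F1 (154 to 596 and 255 to 312), LIN28, DPPA4, TDGF1 and ZFP42 overlapped. Other cell types were looked for in the same way, with no measured marker at 0 in all libraries of a type. The 3 mesoderm markers measured summed to 88.6 to 96.8 in hESCs and 294 to 1466 in endoderm, most of which in endoderm was MIXL1 (30.3 to 41.6 and 265 to 1437), while TBX6 and KDR lay lower in endoderm without overlap. The 4 neuroectoderm markers summed to 5961 to 9044 and 5420 to 11844, most of it NES, while PAX6 (3.12 to 7.09 and 82.9 to 148), OTX2 (25.0 to 65.1 and 369 to 594) and NCAM1 (37.2 to 57.3 and 92.4 to 139.7) lay higher in endoderm without overlap. The 2 trophoblast and extraembryonic markers summed to 188 to 287 and 29.0 to 59.9, and the 5 stromal markers to 7795 to 10127 and 5199 to 7766. Of the stromal markers COL1A1 (1712 to 3482 and 565 to 1210) and THY1 (3340 to 5536 and 1190 to 2090) lay lower in endoderm without overlap. VIM (989 to 2509 and 2956 to 4106) and TWIST1 (10.6 to 35.4 and 72.5 to 264) lay higher without overlap, and COL1A2 overlapped. The part of other cell types in the differences between hESCs and endoderm was not tested. Fewer cells of a type and less RNA per cell cannot be told apart in these bulk libraries.

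Comparing endoderm with hESCs asks which members differ with the differentiated state. Of the 101 members 10 rose and 2 fell (limma with terms for cell type and phase, Benjamini-Hochberg adjusted p under 0.05 over all 14657 regions tested). That is 11.9% of them beside 14.5% of all regions (6.9% higher and 7.6% lower), a share no higher than the background. At an unadjusted p under 0.05 there were 35 members, or 34.7%, beside 34.2% of all regions. DESeq2 on the same reads called 21 members beside 19% of all regions, and edgeR called 10 beside 13.6%. Of the members' calls 83.3% were higher in endoderm, beside 47.6% of the calls over all regions. The members' share rests on 12 calls. With the libraries scaled by the trimmed mean of M-values the split was 9 higher and 4 lower, beside 921 higher and 1227 lower over all regions. The median log2 difference of the members was 0.22 beside 0.02 over all regions, and 61 members lay above 0 and 40 below. Among the 74 members with a mean signal of at least 50 it was 0.20, beside 0.10 over the 6507 regions at that level. In the same fit 10.8% of these 74 members were called, beside 17.7% of those regions. The calls at that level were 7 higher and 1 lower in members, beside 641 higher and 508 lower over the regions. All 3 endoderm libraries lay above all 3 hESC libraries for 17 members (16.8%, beside 14.7% of all regions) and below them for 12 (11.9%, beside 18.6%), together 28.7% beside 33.3% of all regions.

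**Figure D1:**
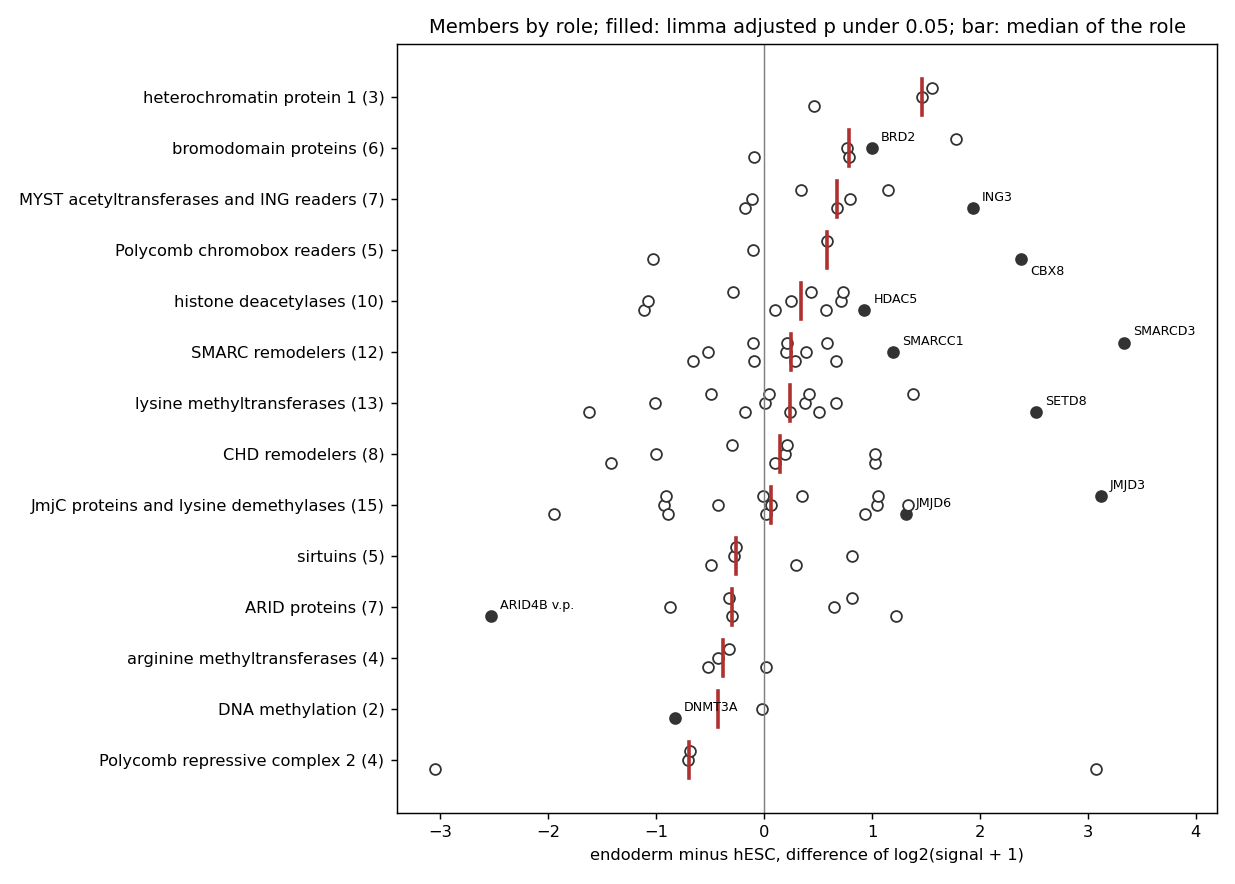
Log2 difference of endoderm from hESCs (horizontal axis, log2 of signal + 1) for 99 of the 101 members (points), arranged by role (vertical axis); filled points passed limma's adjusted p under 0.05 and the short bars are the medians over all members of a role. The 9 members shown that rose lie in 7 roles, and no role with more than 3 members had all of its members on one side of 0.

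SMARC proteins include motors and accessory subunits of the SWI/SNF (BAF) and ISWI remodelers, though not every gene with the name encodes one. Of 12 measured, 2 rose in endoderm, none fell and 10 were not called, with a median log2 difference of 0.25. SMARCD3 (BAF60C), a SWI/SNF subunit known for its part in heart and muscle development, had the largest called difference of any member, at chr7:150576823-150576689. Positions are as deposited, on a build that the submitters' notes give as hg18 or NCBI36, and a start larger than the end marks the minus strand, an order that matched the annotated strand for 99.69% of 8143 named genes. In hESC G1, G1/S and S, the order used throughout, its signal was 70.4, 53.1 and 40.2, and in endoderm 494, 1003 and 330.4. The lowest endoderm library stood above the highest hESC library, and the mean went from 54.5 ± 15.1 to 609 ± 351 (SD, n = 3 per type), a difference of 3.34 ± 0.36 log2 units, adjusted p = 0.00361 by limma, with ± giving the SE. The call was kept in each of the 6 fits that left out 1 library. These are not 6 separate checks, since leaving out either library of a phase gave the same difference: 3.61 for G1, 2.90 for G1/S and 3.50 for S. The other two SMARCD genes encode alternative subunits for the same place in the complex: SMARCD1 had a log2 difference of 0.66 ± 0.29 and SMARCD2 of −0.10 ± 0.23, neither called. SMARCC1 (BAF155), a core scaffold subunit, at chr3:47677988-47677776, read 292, 134 and 279 in hESCs and 584, 281 and 801 in endoderm (a difference of 1.19 ± 0.26 log2 units, adjusted p = 0.0271 by limma). Endoderm stood above hESCs in each phase, but the groups overlap, since endoderm G1/S lay below hESC G1. It was not past the threshold without hESC G1/S, hESC S, endoderm G1/S or endoderm S (adjusted p from 0.103 to 0.110). Its relative SMARCC2 (BAF170) had −0.10 ± 0.38, not called. SMARCA4 (BRG1), the main SWI/SNF ATPase, had the highest mean of the SMARC genes, with 1407, 1539.9 and 1220.4 in hESCs and 1589, 1887 and 1361 in endoderm and a difference of 0.21 ± 0.21 that was not called.

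The promoter of SMARCD3 is shown with those of JMJD3 and SETD8, the other two members with the largest called rise, and that of DNMT1, which had the largest difference between G1/S and G1 among members with a mean signal of at least 50. They come from RefSeq (GRCh38.p14), run 5′ to 3′ on the gene's strand from 250 bases before the start to 50 after it, and capitals mark matches to the motifs searched. They are SMARCD3 at chr7:151277100-151277399 (minus strand), JMJD3 (now KDM6B) at chr17:7833967-7834266 (plus), SETD8 (now KMT5A) at chr12:123383882-123384181 (plus) and DNMT1 at chr19:10194904-10195203 (minus).
SMARCD3: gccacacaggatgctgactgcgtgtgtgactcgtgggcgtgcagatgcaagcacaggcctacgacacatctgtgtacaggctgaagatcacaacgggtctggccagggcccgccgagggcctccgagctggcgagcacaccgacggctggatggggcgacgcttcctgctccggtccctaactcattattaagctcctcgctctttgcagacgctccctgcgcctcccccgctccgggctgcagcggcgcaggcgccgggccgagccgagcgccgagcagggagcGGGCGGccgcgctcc
JMJD3: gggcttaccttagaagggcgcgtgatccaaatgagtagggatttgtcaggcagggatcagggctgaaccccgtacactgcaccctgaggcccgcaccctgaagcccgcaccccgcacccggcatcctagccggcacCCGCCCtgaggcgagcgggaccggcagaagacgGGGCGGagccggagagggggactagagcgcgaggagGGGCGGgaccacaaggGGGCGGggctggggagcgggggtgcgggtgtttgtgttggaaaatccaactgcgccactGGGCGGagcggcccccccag
SETD8: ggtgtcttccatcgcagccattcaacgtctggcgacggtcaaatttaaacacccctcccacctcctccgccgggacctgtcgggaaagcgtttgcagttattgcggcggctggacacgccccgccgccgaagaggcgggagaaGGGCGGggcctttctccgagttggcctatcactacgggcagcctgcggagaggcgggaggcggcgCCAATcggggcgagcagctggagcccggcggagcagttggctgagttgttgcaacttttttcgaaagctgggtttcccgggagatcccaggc
DNMT1: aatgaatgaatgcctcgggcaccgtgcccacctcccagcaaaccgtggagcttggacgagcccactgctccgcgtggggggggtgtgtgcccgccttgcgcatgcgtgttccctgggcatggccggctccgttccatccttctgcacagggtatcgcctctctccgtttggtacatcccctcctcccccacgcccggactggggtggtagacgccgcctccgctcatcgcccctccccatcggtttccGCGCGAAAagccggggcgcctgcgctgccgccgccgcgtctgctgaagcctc
Searched on both strands were the GC box GGGCGG, bound by SP factors, the CCAAT box CCAAT, 4 spellings of the E2F site (TTTGGCGC, TTTCGCGC, TTTGCCGC and TTTCCCGC), AGATAA for GATA factors and TGTTTAC for FOX factors. None of these motifs contains another. The JMJD3 promoter holds 5 GC boxes, the SMARCD3 promoter 1, and the SETD8 promoter 1 GC box and 1 CCAAT box. The DNMT1 promoter holds 1 E2F match, TTTCGCGC on the opposite strand. Of 81 members with a promoter in the RefSeq table, 75.3% hold a GC box beside 73.1% of 7390 measured genes and 58.5% of all 15842 protein-coding promoters. An E2F match is in 8 members (BRD7, CBX3, DNMT1, EZH1, EZH2, SIRT6, SUZ12 and WHSC1), which is 9.88% beside 5.49% and 4.44%. A CCAAT box is in 34.6% beside 36.5% and 36.4%, the GATA letters in 8.64% beside 4.32% and 7.58%, and the FOX letters in 1.23% beside 1.95% and 2.61%. A match describes letters and does not show a bound site.

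JmjC proteins include most of the lysine demethylases. Of 15 measured, 2 rose in endoderm and 13 were not called, with a median log2 difference of 0.06. JMJD3 (KDM6B), which removes the methyl groups that Polycomb places on histone H3, lies at chr17:7698210-7698430. Its signal was 34.0, 40.6 and 13.0 in hESCs and 120.1, 301 and 363 in endoderm (a difference of 3.12 ± 0.54 log2 units, adjusted p = 0.0136 by limma). The types did not overlap. Within each type the phases were far apart, and S was the lowest of the hESC libraries and the highest of the endoderm libraries. It was no longer called without hESC G1/S or endoderm G1/S (adjusted p from 0.0641 to 0.0726). JMJD6, a hydroxylase of RNA-binding proteins also described as an arginine demethylase, at chr17:72226403-72226136, read 59.8, 97.9 and 113 in hESCs and 185, 273 and 207 in endoderm (a difference of 1.32 ± 0.31 log2 units, adjusted p = 0.0316 by limma). The endoderm libraries did not overlap those of hESCs. It was no longer called without hESC G1/S, endoderm G1 or endoderm G1/S (adjusted p from 0.0524 to 0.135). The most abundant member of the group, JMJD8, had 448, 578 and 458 in hESCs and 427, 619 and 438 in endoderm, a difference of −0.01 ± 0.24. The H3K4 demethylases, known under the older names JARID1A, JARID1B and JARID1C, had differences of 1.33 ± 0.41, 0.35 ± 0.34 and −0.42 ± 0.46, none called. JMJD7 and its read-through transcript JMJD7-PLA2G4B are measured at separate regions, with differences of −0.89 ± 0.26 and −0.90 ± 0.34.

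Genes of the SETD, MLL, EHMT and WHSC1 families, grouped as lysine methyltransferases, numbered 13. Of these 1 rose and 12 were not called, with a median log2 difference of 0.24. The group includes SETD3, which methylates a histidine of actin. SETD8 (KMT5A), the enzyme that places a single methyl group on histone H4 and is degraded in S phase, lies at chr12:122459563-122459705. It had 6.81, 43.7 and 28.4 in hESCs and 94.6, 105 and 190.0 in endoderm (a difference of 2.52 ± 0.49 log2 units, adjusted p = 0.0192 by limma). The reads behind these values are 9, 42 and 48 in hESCs and 137, 63 and 111 in endoderm, so hESC G1 rests on few reads. The call was kept in each of the 6 fits that left out 1 library. Leaving out either library of a phase gave the same difference: 1.97 for G1, 3.16 for G1/S and 2.43 for S. Without the intensity trend in limma the adjusted p was 0.0514. MLL4, here the older name of KMT2B, which methylates H3K4 at promoters, was the most abundant of the group, with 273, 289 and 207 in hESCs and 209, 339 and 380.0 in endoderm (0.24 ± 0.32, not called). The G9a and GLP pair, EHMT2 and EHMT1, which place repressive methylation on histone H3, had differences of −1.01 ± 0.63 and −0.49 ± 0.28, neither called.

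Polycomb chromobox proteins bind methylated histone H3 and bring Polycomb repressive complex 1 to it. Of the 4 described here, 1 rose in endoderm and 3 were not called. CBX8, at chr17:75383015-75382894, had 1.51, 6.25 and 4.13 in hESCs and 20.0, 20.0 and 29.1 in endoderm (a difference of 2.38 ± 0.61 log2 units, adjusted p = 0.0416 by limma), from 2, 6 and 7 and 29, 12 and 17 reads. It was not past the threshold without any 1 of the 6 libraries (adjusted p from 0.0535 to 0.190). It was low in hESCs and did not overlap between types. CBX2, of the same complex, had 80.9, 11.5 and 181 in hESCs and 47.6, 15.0 and 27.4 in endoderm and a difference of −1.03 ± 0.58 that was not called. CBX6 had the highest mean of the group, with 141, 149.9 and 156 in hESCs and 151, 156 and 113 in endoderm (−0.10 ± 0.29), and CBX7 had 0.58 ± 0.57.

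Polycomb repressive complex 2 places the mark that the chromobox proteins read. None of its 4 measured genes was called, and the median log2 difference was −0.70. JARID2, the subunit that helps to bring the complex to its targets, was by far the most abundant, with 2358, 3195 and 3653 in hESCs and 2359, 1935 and 1457 in endoderm (a difference of −0.68 ± 0.28 log2 units, adjusted p = 0.136 by limma). In G1/S and S the hESC library stood above the endoderm library, and in G1 their values were close. Without hESC G1 or endoderm G1 the difference was −1.02 and called (adjusted p = 0.0116 and 0.0121 by limma), and without hESC S or endoderm S it was −0.36 and not called. The fits without a G1 library rest on the same pairs, G1/S (−0.72) and S (−1.33), and drop the G1 pair (0.00). SUZ12 and EZH2, singled out after their values were seen because they came near the threshold in opposite directions, rest on few reads. SUZ12, the scaffold, had 36, 15 and 25 reads in hESCs and 1, 4 and 0 in endoderm (a difference of −3.05 ± 0.86 log2 units, adjusted p = 0.0532 by limma), and EZH2, the methyltransferase, had 6, 1 and 0 and 45, 2 and 28 (a difference of 3.08 ± 0.99 log2 units, adjusted p = 0.0756 by limma). EZH2 in endoderm G1/S lay within the hESC range, so its groups overlap. EZH1, the alternative methyltransferase, had 212, 189 and 86.8 in hESCs and 111, 84.8 and 83.9 in endoderm (−0.71 ± 0.34, not called).

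**Figure D2:**
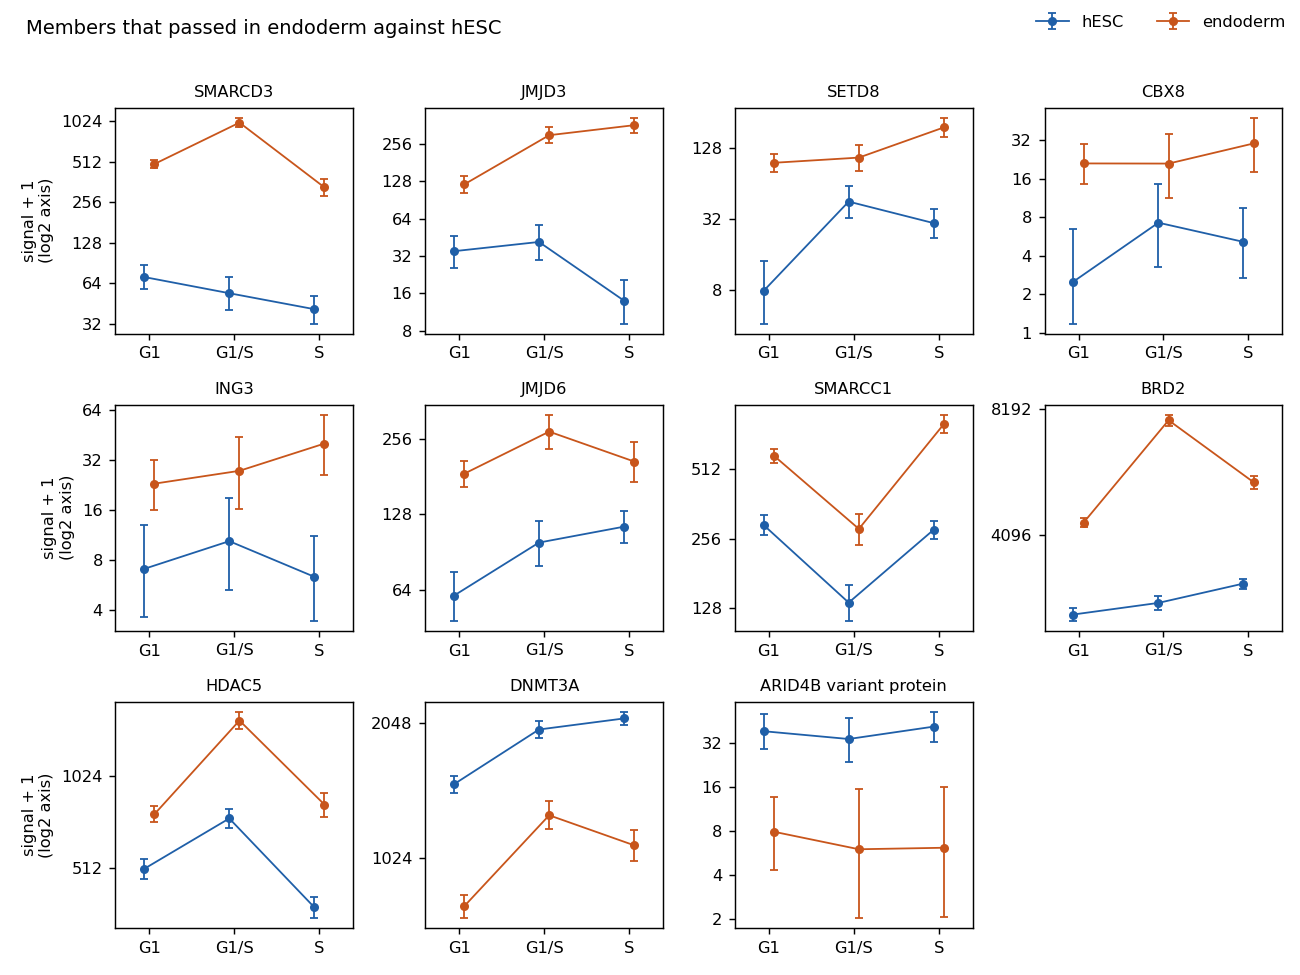
Signal + 1 (vertical axes, log2 scale, each panel its own) by phase (horizontal axis) for 11 of the 12 members that passed limma's adjusted p under 0.05 between endoderm and hESCs; points joined by type are single libraries, and bars are the exact 95% counting intervals of the reads. In 10 panels the 3 libraries of one type stand clear of those of the other, and in the panel of SMARCC1 they overlap.

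Bromodomain proteins bind acetylated histones, and 1 of the 6 measured rose while 5 were not called, at a median log2 difference of 0.79. BRD2, a BET protein, had the highest mean of all 101 members, at chr6:33056781-33057070. It read 2635, 2809 and 3125 in hESCs and 4374, 7688 and 5464 in endoderm (a difference of 0.996 ± 0.23 log2 units, adjusted p = 0.0300 by limma), and endoderm stood above hESCs in each phase without overlap. It was not past the threshold without hESC G1/S, hESC S, endoderm G1/S or endoderm S (adjusted p from 0.0505 to 0.197). BRD3, another BET protein, had 0.77 ± 0.40, not called. BRD9, a subunit of a smaller SWI/SNF complex, had −0.10 ± 0.24.

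Histone deacetylases numbered 10, with 1 that rose and 9 that were not called, and the sirtuins, which are NAD-dependent deacetylases, numbered 5 with none called. HDAC5, a class IIa deacetylase that moves between nucleus and cytoplasm, had the highest mean of the deacetylases, at chr17:39511580-39511379. Its values were 508, 744 and 379.8 in hESCs and 769, 1562 and 827 in endoderm (a difference of 0.93 ± 0.24 log2 units, adjusted p = 0.0441 by limma). The types did not overlap. It was no longer called without hESC G1/S, hESC S, endoderm G1/S or endoderm S (adjusted p from 0.155 to 0.185). HDAC7, of the same class, had 0.73 ± 0.25 and the class I enzymes HDAC1, HDAC2, HDAC3 and HDAC8 had 0.58 ± 0.40, 0.71 ± 0.36, −1.08 ± 0.43 and 0.25 ± 0.37, none called. SIRT7, a nucleolar sirtuin, was the most abundant of its family with 611, 996 and 768 in hESCs and 783, 1879.9 and 1724 in endoderm (0.81 ± 0.25, adjusted p = 0.0684 by limma), and it was called without hESC G1 or endoderm G1 (1.04, adjusted p = 0.0162 and 0.0168 by limma). These fits for SIRT7 rest on the same pairs, G1/S (0.92) and S (1.17), and drop the G1 pair (0.36).

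MYST acetyltransferases and the ING readers that guide them numbered 7, of which 1 rose. ING3, a subunit of the NuA4 acetyltransferase complex, at chr7:120402722-120402927, had 6.05, 9.37 and 5.32 in hESCs and 22.1, 26.6 and 39.4 in endoderm (a difference of 1.93 ± 0.52 log2 units, adjusted p = 0.0470 by limma) from 8, 9 and 9 and 32, 16 and 23 reads. Its groups did not overlap, at a low level in both. It was not past the threshold without hESC G1/S, hESC S, endoderm G1, endoderm G1/S or endoderm S (adjusted p from 0.0556 to 0.258). MYST3 (KAT6A), an acetyltransferase of histone H3, was the most abundant, with 196, 241 and 218 in hESCs and 342, 381 and 413 in endoderm (0.79 ± 0.26, not called).

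DNA methyltransferases gave 1 member that fell and 1 that was not called. DNMT3A, which adds methyl groups to unmethylated DNA, at chr2:25323174-25322984, read 1495, 1980.3 and 2096 in hESCs and 798, 1274 and 1092 in endoderm (a difference of −0.83 ± 0.22 log2 units, adjusted p = 0.0453 by limma). Every endoderm library lay below every hESC library. The call was lost without hESC G1, hESC G1/S, hESC S, endoderm G1/S or endoderm S (adjusted p from 0.0534 to 0.174). DNMT1, which copies methylation onto new DNA after replication, had 303, 32.3 and 80.3 in hESCs and 126, 53.2 and 113 in endoderm (−0.02 ± 0.44), with a spread between phases wider than the difference between types.

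ARID proteins bind DNA through an AT-rich interaction domain, and several are subunits of SWI/SNF or Sin3 complexes. Of 7 IDs 1 fell and 6 were not called. The one that fell is listed as ARID4B variant protein, at chr1:233458464-233458289, on the same chromosome as ARID4B, a Sin3 subunit, at chr1:233466118-233465934. It had 37.8, 33.3 and 40.8 in hESCs and 6.90, 4.99 and 5.13 in endoderm (a difference of −2.53 ± 0.47 log2 units, adjusted p = 0.0175 by limma) from 50, 32 and 69 and 10, 3 and 3 reads. It was not past the threshold without hESC G1/S, hESC S or endoderm G1/S (adjusted p from 0.0692 to 0.0884). The region listed as ARID4B itself had 56.7, 30.2 and 29.5 in hESCs and 18.0, 16.6 and 25.7 in endoderm (−0.87 ± 0.44, not called). Both regions may end transcripts of 1 gene, which the table does not settle. ARID3A, a transcription factor of the family, had the highest mean with 1919, 1691 and 1436 in hESCs and 1517, 3542 and 3326 in endoderm (0.65 ± 0.33, not called), and its G1 libraries differed the other way from its G1/S and S libraries. Without hESC G1 or endoderm G1 the difference was 1.14 and called (adjusted p = 0.00506 and 0.00512 by limma), and without 1 of the other 4 libraries it was 0.36 to 0.44 and not called. The fits without a G1 library rest on the same pairs, G1/S (1.07) and S (1.21), and drop the G1 pair (−0.34).

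The remaining 3 roles had no call. Among 8 CHD remodelers the median log2 difference was 0.15, and CHD4, the ATPase of the NuRD complex, had 3139, 2185 and 2132 in hESCs and 2589.9, 3059 and 2896 in endoderm (0.22 ± 0.24). Among 4 arginine methyltransferases the median was −0.38, and the most abundant, PRMT2, had 1338, 283 and 577 and 745, 524 and 585 (0.02 ± 0.35). The 3 heterochromatin protein 1 genes, whose products bind the methyl mark of silent repeats, all had differences above 0, with a median of 1.46. CBX3, the most abundant of them, had 4006, 427 and 580.1 in hESCs and 3162, 2171 and 3018 in endoderm (a difference of 1.46 ± 0.51 log2 units, adjusted p = 0.0928 by limma). The ranges of the types overlap, since hESC G1 lay above every endoderm library. Without hESC G1 or endoderm G1 the difference was 2.36 and called (adjusted p = 3.8e-05 and 5.9e-05 by limma), and without 1 of the other 4 libraries it was 1.001 to 1.02 and not called. The fits without a G1 library rest on the same pairs, G1/S (2.34) and S (2.38). They drop the G1 pair, which went the other way (−0.34), so they are not separate support for a difference. DESeq2 on all 6 libraries called it, with 1.52 (adjusted p = 0.0154).

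Comparing phases asks which members differ as cells pass from G1 into S. With limma no member was called in S against G1 or in G1/S against G1, and 0% of the 14657 regions was called in either. At an unadjusted p under 0.05 there were 6 members in S against G1 (5.94%, beside 3.39% of all regions) and 20 in G1/S against G1 (19.8%, beside 13.7%). Among members with a mean of at least 50 the shares were 8.1% and 20.3%, beside 4.4% and 18.2% of the regions at that level. With edgeR 0 regions were called in either comparison. With DESeq2 1 region (0.00682%) and no member was called in S against G1, and in G1/S against G1 89 regions (0.607%) and 1 member, DNMT1. The members' median log2 difference was −0.13 in S against G1 and −0.12 in G1/S against G1, beside 0.00 and 0.07 over all regions. Among the 74 members with a mean of at least 50 it was −0.02 and 0.06, beside 0.02 and 0.27 over the regions at that level. The G1 libraries weigh on these counts. With either left out, the G1 level in the fit rests on the G1 library of the other type alone. The calls of such fits therefore lean on 1 G1 library and are not separate support for a phase difference. Without endoderm G1 limma called 201 regions in S against G1, with 3 members (BRD3, CBX3 and SETD6), and 196 in G1/S against G1, with 5 members (BRD3, CBX3, DNMT1, PRMT2 and SETD6). Without hESC G1 it called 0 and 329 regions, with SMARCA1 as the only member among the 329. The values that follow are descriptions of members with a mean signal of at least 50.

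For G1/S against G1 the 10 members with the widest differences were DNMT1, SETD6, CBX2, CBX3, SMARCA1, JARID1C, PRMT2, PRMT5, SETD8 and ARID3B. DNMT1 had a log2 difference of −2.21 ± 0.54 (SE), with 303 in hESC G1 against 32.3 in hESC G1/S, and 126 against 53.2 in endoderm. CBX3, a reader of heterochromatin, had −1.88 ± 0.63, and its G1/S library was the lowest of its type in both types. PRMT2 and PRMT5, which methylate arginines asymmetrically and symmetrically, had −1.37 ± 0.42 and −1.34 ± 0.58. SMARCA1, an ISWI ATPase, and JARID1C, an H3K4 demethylase, had −1.67 ± 0.51 and −1.55 ± 0.56, CBX2 had −2.16 ± 0.71 and ARID3B had −1.30 ± 0.41. The 2 methyltransferases above 0 were SETD6 and SETD8, with 2.18 ± 0.78 and 1.33 ± 0.60. SETD6, which methylates a histone variant and an NF-kappaB subunit, read 5.30, 79.1 and 47.3 in hESCs and 67.0, 108 and 56.5 in endoderm, so that hESC G1, with 7 reads, stood apart from all other libraries. SETD8 was also lowest in hESC G1, with 9 reads. At the regions used, the 8 members below 0 were at their lowest in G1/S in both types. They were picked from these same libraries for a wide difference averaged over the types. A low G1/S in both types therefore follows in part from that choice. The other regions of CBX2 and PRMT2 went the other way (1.43 and 0.64), and that of DNMT1 did not (−1.60). The fit behind these SEs takes each phase to act alike in hESCs and endoderm, and the adjusted p ran from 0.362 to 0.374 by limma.

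**Figure D3:**
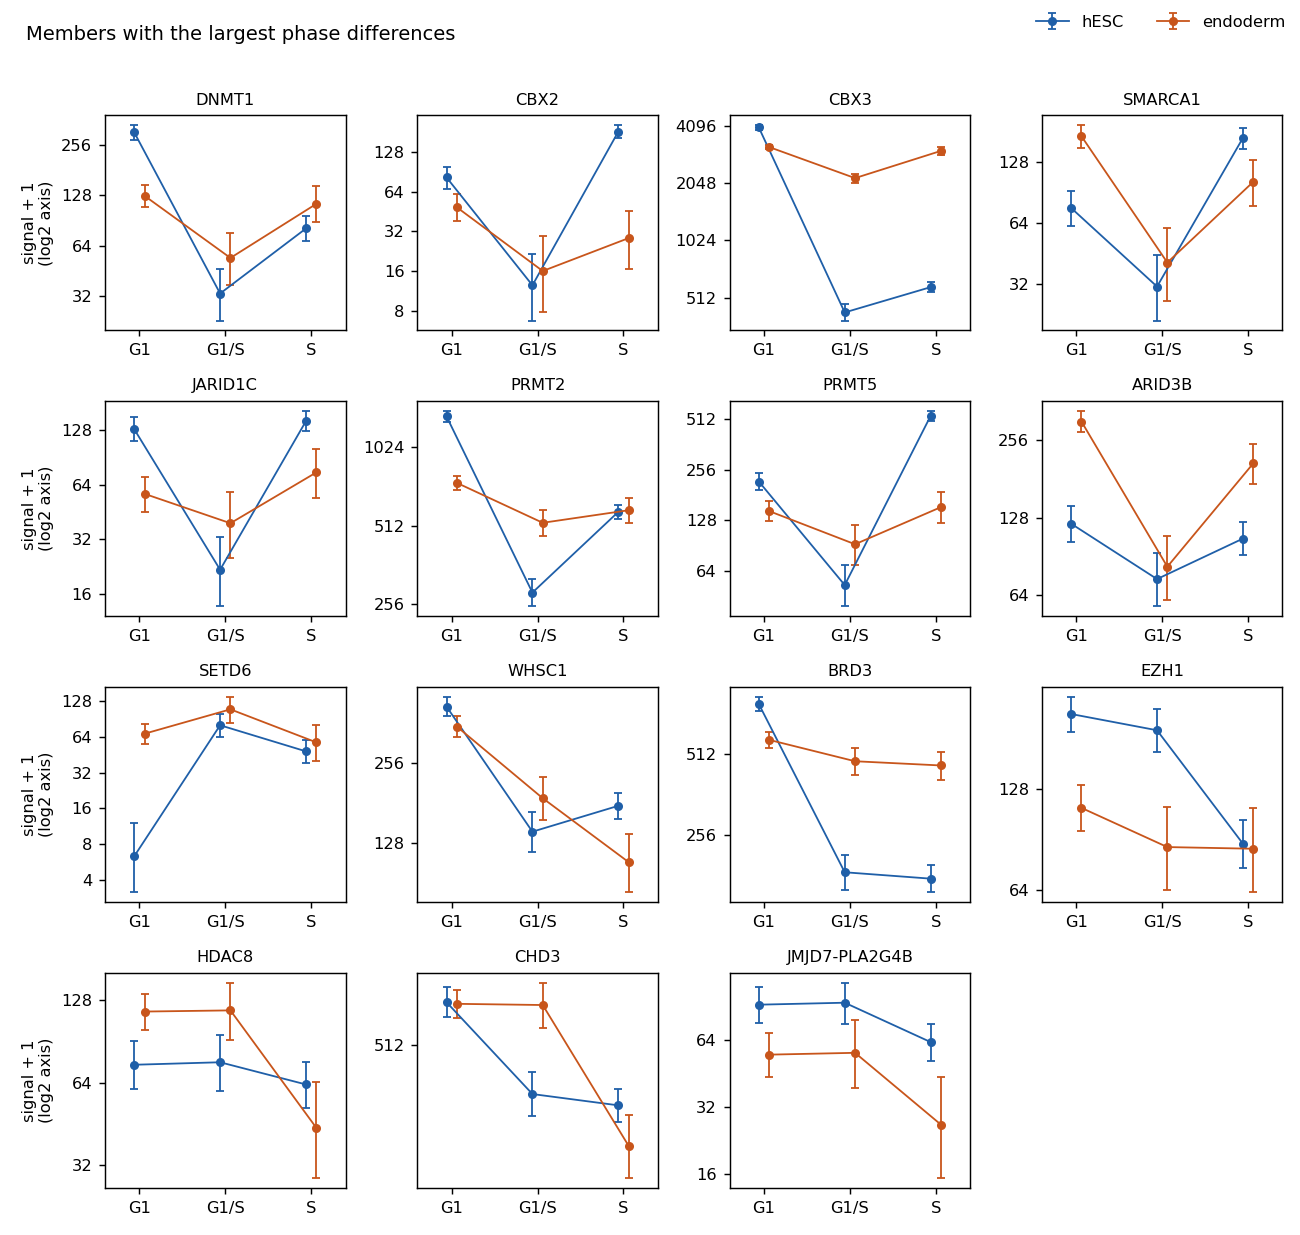
Signal + 1 (vertical axes, log2 scale, each panel its own) by phase (horizontal axis) in hESCs and endoderm (lines) for 15 members with the widest phase differences; each point is 1 library and bars are exact 95% counting intervals. The 8 members below 0 in G1/S against G1, DNMT1 to ARID3B, dip at G1/S in both types, and SETD6 is low in hESC G1. All members shown were picked from these same libraries for their phase differences, each at its region of highest mean.

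For S against G1 the widest differences belonged to WHSC1, SETD8, CBX3, SETD6, BRD3, DNMT1, EZH1, HDAC8, CHD3 and JMJD7-PLA2G4B, 4 of which also stand in the list for G1/S. WHSC1 (NSD2), a methyltransferase of H3K36, had −1.46 ± 0.38, from 416, 141 and 176 in hESCs and 350.1, 188 and 108 in endoderm. In both types G1 was its highest phase. BRD3, a BET protein, had −1.23 ± 0.49, EZH1 −0.84 ± 0.41, HDAC8 −0.82 ± 0.45, the remodeler CHD3 −0.81 ± 0.33 and JMJD7-PLA2G4B −0.80 ± 0.41. DNMT1 had −1.03 ± 0.54 and CBX3 −1.43 ± 0.63, with SETD8 at 1.45 ± 0.60 and SETD6 at 1.35 ± 0.78. For some members the types contributed unequally. In hESCs and endoderm CBX3 had −2.79 and −0.07, DNMT1 −1.90 and −0.16, and BRD3 −2.15 and −0.31. HDAC8 was wider in endoderm (−0.24 and −1.41). SETD6 had 2.94 and −0.24, and was the only member of the 10 with opposite signs. At their other regions HDAC8 had 0.81, DNMT1 −0.40, and WHSC1 −0.19 and −0.68. The limma adjusted p of all 10 was 0.982.

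Each type gives its own value for a phase difference, and the values can be set side by side for the 74 members with a mean of at least 50. For G1/S less G1 Pearson's r across these members was 0.48 (0.31 across all 6507 regions at that level), with 27 members (36.5%) below 0 in both types and 31 (41.9%) above 0 in both, beside 21.4% and 48.4% of those regions. For S less G1 it was −0.08 (−0.13 across all regions), with 23 members (31.1%) below and 14 (18.9%) above in both, beside 22.1% and 24.4% of the regions. The points share their 4 libraries and so their depth and base composition. GC content moved with the libraries: its rank correlation with a gene's deviation from its mean, over the last 500 bases of 9118 named genes, was 0.46 in hESC G1/S and 0.26 in endoderm G1/S, and 0.008 and −0.44 in the G1 libraries of hESCs and endoderm. In the S libraries it was −0.12 and −0.17. Across the 99 members with a GC value it was 0.25 and 0.42 in G1/S, and −0.19 and −0.26 in G1. The part of GC content in the phase differences was not tested.

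**Figure D4:**
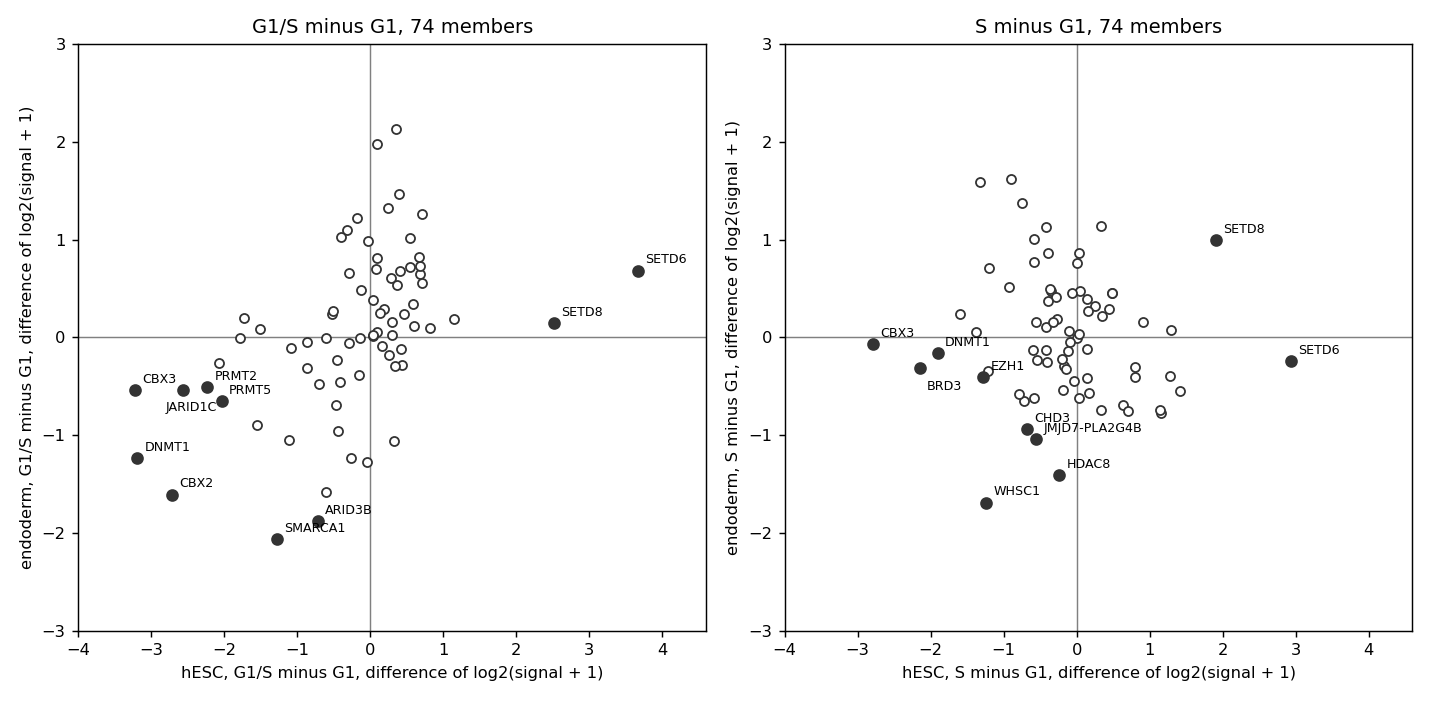
Phase differences (log2 of signal + 1) in hESCs (horizontal axes) against endoderm (vertical axes) for the 74 members with a mean signal of at least 50, with G1/S less G1 on one panel and S less G1 on the other. Filled points are the 10 members named for each comparison. Points of the G1/S panel spread along the diagonal (r = 0.48) and those of the S panel do not (r = −0.08).

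Some members have more than 1 region, which a count per gene hides. No annotation of the deposited build was used, so whether each region marks a transcript end of its gene was not tested. There were 14 such genes with 30 regions, and in 9 of them the most abundant region was also the most downstream. No region of these genes was called between types. In 8 genes all regions differed in 1 direction between types and in 6 they did not. DNMT1 is measured mainly at an upstream region, 42.1 kb before its other one, and the regions had differences between types of −0.02 and 0.19 and between G1/S and G1 of −2.21 and −1.60. SMARCA4 has a region 69 kb upstream of its main one with 2486, 548 and 805 in hESCs and 1511, 1424 and 1274 in endoderm, so that in hESC G1 the upstream region held more signal than the main one. The 2 regions of PRMT2 went apart between phases: the upstream one had a difference of −1.37 between G1/S and G1 and the one 11.8 kb downstream 0.64. The H3K9 methyltransferase EHMT2 had −1.01 at the main region and −2.95 at a region 1.9 kb upstream, both at low signal. With the 2 regions summed its difference was −1.67 and called (adjusted p = 0.0473 by limma). JMJD1C, a relative of the H3K9 demethylases, had −1.95 at the main region and −0.19 and −1.33 at regions 182.3 and 187.2 kb upstream. HDAC8 had 0.25 at its main region and −2.36 at one 144.3 kb upstream, whose signal was 9.83, 0 and 32.5 in hESCs and 0, 1.66 and 0 in endoderm. CBX2 had −1.03 at its main region and 0.88 upstream, and between G1/S and G1 it had −2.16 and 1.43.

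**Figure D5:**
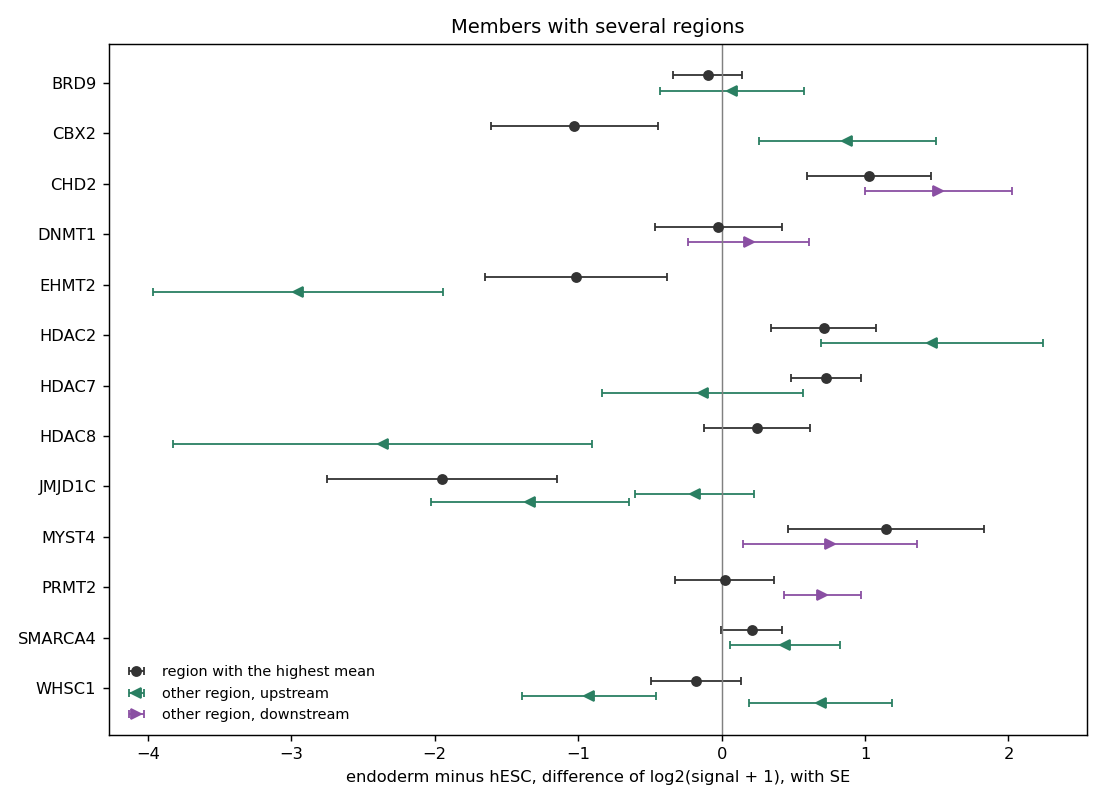
Difference of endoderm from hESCs (horizontal axis, log2 of signal + 1, with limma's SE as bars) at each region of 13 of the 14 members with several regions (vertical axis), with circles for the region of highest mean and triangles for regions upstream or downstream of it. None of the 28 regions shown passed limma's adjusted threshold, and the regions lie on both sides of 0 in 6 genes.

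Partners of these enzymes that the naming rule does not reach were read from 8 lists of related chromatin genes. Of 166 such genes measured, 12 rose and 6 fell in endoderm, which is 10.8% beside 14.5% of all regions. Of 23 Polycomb partners 5 rose and none fell. They are the RYBP and YAF2 pair of Polycomb repressive complex 1, PHC2 of the same complex, ASXL1 of the deubiquitinating complex and the BCOR relative BCORL1. RYBP went from 85.2 ± 48.5 to 316 ± 118 (means with the SD of 3 libraries per type; limma adjusted p = 0.0247) and PHC2 from 593 ± 231 to 1223 ± 401 (0.0248). For PHC2 the types overlap, with 826 in hESC G1/S and 780 in endoderm G1. Fits with a library left out are not given for the genes of these lists. ASXL1 went from 95.6 ± 0.244 to 261 ± 59.4 (0.0235), BCORL1 from 106 ± 21.9 to 225 ± 31.1 (0.0436) and YAF2 from 5.13 ± 7.40 to 41.1 ± 11.5 (0.0205). Of 11 DNA methylation partners 3 rose and 1 fell. DNMT3B, the partner of DNMT3A, fell from 439 ± 40.5 to 139 ± 23.1 (0.0102), while GADD45A and GADD45B, stress genes tied to demethylation, rose: GADD45A went from 53.4 ± 17.1 to 188 ± 58.8 (0.0143) and GADD45B from 41.1 ± 5.28 to 142 ± 42.1 (0.0214). The methyl-binding protein MBD1 rose from 10.9 ± 5.70 to 37.7 ± 17.6 (0.0397).

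Of 36 remodeler partners 2 rose and 1 fell. PHF10, the BAF45A subunit of the SWI/SNF complex of progenitors, rose from 262 ± 44.7 to 935 ± 268 (limma adjusted p = 0.00600) and BCL7C from 677 ± 319 to 1677 ± 864 (0.0490). For BCL7C the types overlap, with 984 in hESC G1/S and 879 in endoderm G1. ACTL6B, the subunit of the neuronal complex, had 17.4, 34.4 and 14.2 in hESCs and 0 in each endoderm library (0.0201). Of 20 other methyltransferases and demethylases 2 fell: PRDM14, a regulator of pluripotency, from 653 ± 148 to 294 ± 136 (0.0282) and PADI4, which converts arginine to citrulline, from 42.6 ± 1.06 to 2.37 ± 0.848 (0.00743). Of 21 NuRD, Sin3 and CoREST partners SALL4 rose from 13.9 ± 9.27 to 45.2 ± 17.6 (0.0391) and MTA3 fell from 56.2 ± 24.5 to 12.3 ± 4.14 (0.0193). Of 19 acetyltransferases and their partners KAT2A (GCN5) fell from 1021 ± 230.4 to 466 ± 141 (0.0214). Of 24 histone chaperones ANP32B rose from 44.6 ± 20.8 to 149.9 ± 78.0 (0.0202), and none of 12 COMPASS partners, which assist the MLL enzymes, was called. ANP32B overlaps between types, with 64.3 in hESC G1 and 59.9 in endoderm G1/S.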

How the data were processed

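There are 6 libraries of 3' read ends, 1 for each of 2 cell types and 3 phases. Named in the submitters' processing notes, without their roles, are Bowtie 0.12.7, CASAVA 1.5, DESeq 1.5.24 and the builds hg18 and NCBI36. The authors deposited a signal value per library for 14686 regions. At a tolerance of 1e-06, 100% of these values are whole reads divided by 1 size factor per library, so they are linear although the design allowed for log values. No column of values was left unused.

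Members were matched by name, and the members, roles and related lists were chosen with earlier results of these data known. Of the 101 members 99 matched a current symbol, 17 of them under an older name. The 14657 regions tested reached a log2(value + 1) of 1 in 3 or more libraries. In R 4.3.3, limma 3.58.1 (lmFit and eBayes, intensity trend on) was fitted to log2(value + 1), with terms for cell type and phase, over all regions at once, leaving 2 residual degrees of freedom beside a prior of 5.46. Calls are Benjamini-Hochberg adjusted p-values under 0.05. The pseudocount understates differences of weakly expressed genes. The phase term pairs the libraries of the same label. With a library left out, its partner no longer bears on the difference between types. Leaving out either of a pair therefore gives the same difference, from the pairs that remain and with fewer residual degrees of freedom. In the phase comparisons the phase of a left-out library then rests on 1 library. SDs within a type span its 3 phases. No type and phase has a second library and all share 1 passage, so p-values measure only the spread among these libraries, which may be technical. Counting intervals are exact 95% Poisson intervals of the reads, which run up to 3.69 reads for a count of 0. They cover no more than counting error, as PCR copies of a molecule are counted as reads.

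Named are the members that passed the threshold between types, the 10 with the widest difference in each phase comparison among members with a mean of at least 50, the most abundant member of each role, and at most 5 called genes of each related list. Relatives of these that are named beside them, and the genes with several regions, were chosen after their values were seen. Alternatives were edgeR 4.0.16 and DESeq2 1.42.0 on the recovered reads, other scaling, filters and pseudocounts, no phase term, no intensity trend, summed regions and left-out libraries. The limma fit was tested on simulated data. RefSeq promoters of GRCh38.p14 were used for sequence only, and no position was converted between builds. A few items are not reported here, though counts over all members include them.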

Additional observations from a re-analysis of the deposited data

Results flagged for a closer look

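For 15 of 99 members examined a phase lay above G1 in one cell type and below G1 in the other, with counting intervals that did not overlap G1 in either type. Each value rests on 1 library per type and phase, so the difference between the types was not tested. The share of all regions that meet this rule was not counted. For S less G1, 31.1% of the 74 members with a mean of at least 50 lay below 0 in both types and 18.9% above. Over the 6507 regions at that level these shares were 22.1% and 24.4%, so opposite signs were common in either set. Values are log2 differences from G1 in hESCs, then in endoderm, then endoderm less hESC. Among lysine methyltransferases, 4 enzymes of H3K4 lay lower in S than in G1 in hESCs and higher in endoderm: MLL had −0.90, 1.62 and 2.52, MLL2 had −0.75, 1.38 and 2.13, MLL4 had −0.40, 0.86 and 1.25, and SETD1A had −0.37, 0.49 and 0.86. The demethylases JMJD3 and JARID1A went the same way in S, with −1.32, 1.59 and 2.91 for the first and −1.20, 0.71 and 1.91 for the second. Of the remodelers, the SWI/SNF core subunit SMARCB1 had −0.58, 1.001 and 1.58 in S, its partner SMARCC2 had 0.70, −0.75 and −1.45, and the ISWI ATPase SMARCA1 had 1.14, −0.74 and −1.89. CHD4, the NuRD ATPase, had −0.56, 0.16 and 0.72 in S, and −0.52, 0.24 and 0.76 in G1/S. The deacetylase HDAC1 had 1.42, −0.54 and −1.96 in S. ARID3A, a transcription factor with an ARID domain, had −0.42, 1.13 and 1.55 in S, and −0.18, 1.22 and 1.41 in G1/S. JARID2, of Polycomb repressive complex 2, had 0.63, −0.69 and −1.33 in S, and 0.44, −0.29 and −0.72 in G1/S. The arginine methyltransferase PRMT7 had −0.39, 0.37 and 0.76 in S, and −0.29, 0.66 and 0.95 in G1/S. CBX1, a heterochromatin protein 1 gene, had 1.31, −1.53 and −2.83 in G1/S.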

How the results depend on the processing

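Between endoderm and hESCs limma called 2125 regions and 12 members. The count of regions was 986 with a stricter filter (mean of at least 50, over 6507 regions), 415 without both G1/S libraries, and between 419 (without hESC G1/S) and 2344 (without endoderm G1) when 1 library was left out. The count of members was 5 without the intensity trend, 21 with DESeq2 (the 12 and 9 others), 2 without both G1/S libraries (SETD8 and SMARCD3), and 2 (without hESC G1/S), 3 (endoderm G1/S), 4 (hESC S), 5 (endoderm S), 19 (endoderm G1) or 21 (hESC G1) with 1 library left out. The shares of all regions called were 10% without the trend, 19% with DESeq2 and 2.83% without both G1/S libraries. With 1 library left out they were, in the same order, 2.86%, 3.9%, 6.65%, 8.19%, 16% and 15.3%. The paired phase term acts as a replicate block: without it 1825 regions and 9 members were called. In S against G1 DESeq2 called 1 region, and limma between 0 and 201 with 1 library left out. In G1/S against G1 DESeq2 called 89, and limma between 0 and 329. Over 364 values of 23 named members between types, 278 kept direction and side of the threshold, 64 lost the call, 9 gained one and 13 uncalled values near 0 changed sign. No called value changed sign. The cause of these shifts was not tested, beyond the fewer libraries or regions that the settings hold. Of the 12 called members 5 had under 10 reads in a library, and endoderm S holds the fewest reads of the libraries.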

Other observations

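DESeq2 called 9 members between types that limma did not: CBX3, CHD7, EZH2, JARID1A, JMJD1C, JMJD2B, JMJD7, SETD3 and SUZ12. SETD3, which methylates a histidine of actin, had 410.0, 143 and 711 in hESCs and 121, 128 and 90.7 in endoderm (limma adjusted p = 0.0677). CHD7, a remodeler whose loss causes CHARGE syndrome, had 149.8, 112 and 117 in hESCs and 257, 186 and 356 in endoderm (limma adjusted p = 0.0628). JMJD2B, a demethylase of H3K9, had 154, 272 and 210.3 in hESCs and 362, 388 and 443 in endoderm (limma adjusted p = 0.0614), and JARID1A, a demethylase of H3K4, had 126, 68.7 and 54.3 in hESCs and 180.2, 145 and 294 in endoderm (limma adjusted p = 0.0684).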
